A study of Mus musculus with 9 samples.

Results

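The cytoplasmic actin genes Actb and Actg1, the smooth muscle contractile genes Acta2, Tagln, Cnn1, Myl9 and Myh11, the tropomyosin genes Tpm2 and Tpm4, and the intermediate filament gene Vim were followed by RNA-seq in cultured heart cells. The 10 genes were chosen by name from the 55401 genes of the table of fragment counts, and all 10 were among the 16762 genes that passed the filter on low counts. The cells were primary neonatal mouse ventricular myocytes (NMVMs), taken from the ventricles of 1-day-old C57BL/6J pups of wild-type genotype. Control cultures (3 libraries) stayed at normal oxygen in complete DMEM with 10% FBS. Hypoxia cultures (3 libraries) were put into DMEM lacking glucose and serum and sealed for 6 h with an AnaeroPack, which removes oxygen. Hypoxia + rSRGN cultures (3 libraries) were handled in the same way, with recombinant serglycin, the core protein of a secreted proteoglycan, in the medium during the hypoxic period. Control therefore differed from both hypoxic groups in oxygen, glucose and serum at once, and their parts cannot be told apart, whereas the labels give the added protein as the only difference between the hypoxic groups. Nothing in the labels says that the libraries of a group came from separate litters or preparations, so p-values measure the spread between these libraries, which may be technical.

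Actin filaments carry contraction in muscle and shape, adhesion and movement in all cells. Vertebrates build them from closely related actins, of which Actb and Actg1 encode the forms of non-muscle cytoplasm and Acta2 the form of vascular smooth muscle, which activated fibroblasts and immature heart muscle cells also make. Smooth muscle genes such as Tagln, Cnn1 and Myh11 are classical targets of serum response factor (SRF), which binds DNA at a sequence called the CArG box and is helped by cofactors that respond to free actin (Mrtfa, Mrtfb) or that are restricted to heart and smooth muscle (Myocd).

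The promoter sequence of RefSeq, from 250 bases before to 50 bases after the start that RefSeq gives a gene (GRCm38.p6), was at hand for 7 of the 10 genes, and Actb, Tagln and Myh11 had none. All distances below are counted from the RefSeq start. In all 7 genes it lies downstream of the outermost start in the GENCODE annotation used for counting, by 37 to 384 bases in 6 of them (44 in Myl9, 47 in Actg1 and 217 in Acta2) and by 5114 bases in Tpm4. The Acta2 stretch printed here is therefore upstream of the RefSeq start but inside the gene as its GENCODE coordinates are given with its levels. An exact CArG box was present in 1.63% of 32851 such promoters, and among the 7 genes in Actg1, as CCATATATGG beginning 90 bases before the start, and in Myl9, as CCTAATAAGG beginning 161 bases before it. A CArG box with 1 C or G in its A/T core was present in 8.5% of the promoters, in Acta2 beginning 84 and 34 bases before the start and in Myl9 beginning 99 bases before it. The CArG box is the same on both strands, so both were covered. The stretches from 170 to 21 bases before the RefSeq start are printed for these genes, because they hold letters that match this box and because these 3 genes took different courses in the cultures. Capitals mark the CArG boxes, exact or with 1 C or G, and each sequence reads 5′ to 3′ on the strand of its gene: Actg1 on the minus strand at chr11:120348516-120348665, Myl9 on the plus strand at chr2:156775294-156775443 and Acta2 on the minus strand at chr19:34255394-34255543.
Actg1: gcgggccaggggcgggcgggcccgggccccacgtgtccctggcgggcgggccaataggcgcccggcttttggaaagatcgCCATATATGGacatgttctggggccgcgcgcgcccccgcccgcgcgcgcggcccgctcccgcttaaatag
Myl9: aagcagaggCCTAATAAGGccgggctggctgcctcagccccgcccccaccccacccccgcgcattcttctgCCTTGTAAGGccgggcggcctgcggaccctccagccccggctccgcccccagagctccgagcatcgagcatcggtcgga
Acta2: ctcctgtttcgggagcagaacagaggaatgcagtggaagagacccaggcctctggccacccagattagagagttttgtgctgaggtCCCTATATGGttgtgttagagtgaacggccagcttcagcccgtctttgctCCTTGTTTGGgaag
Of 3 other motifs searched on both strands in the whole promoters, TATAAA was present in Vim (13.6% of all promoters), GGGCGG in Actg1, Myl9, Tpm2 and Tpm4 (35.7%) and ACGTG in Actg1 and Cnn1 (19.6%). None of these overlapped a CArG box. These matches describe the letters of the window and not the binding of a factor.

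The libraries held 16583985 to 22781557 counted fragments, more in control than in either hypoxic group. The 10 genes together took 0.679% to 0.702% of the fragments in control, 1.35% to 1.49% in hypoxia and 1.26% to 1.33% in hypoxia + rSRGN. Levels are given in CPM, the count of a gene relative to a library size scaled by TMM, and per kilobase of exon where genes are set beside each other. The 14 cardiomyocyte marker genes summed to 49509 to 60934 CPM in control, 4222 to 6566 CPM in hypoxia and 8416 to 9055 CPM in hypoxia + rSRGN, and none of them was at 0 in every library of a group. The 10 fibroblast marker genes summed to 10116 to 11766 CPM in control, so the control cultures held both kinds of transcript. As these were whole cultures, fewer cells of a type and less RNA per cell cannot be told apart.

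Per kilobase, Actb was the highest of the 10 genes in control, at 745 ± 12.5 CPM per kb (SD, n = 3), followed by Acta2 at 631 ± 55.2 and Myl9 at 449 ± 25.5. Vim (374 ± 18.1) and Actg1 (369 ± 10.99) came next and overlapped each other. Tpm4 (81.7 ± 5.91 CPM per kb) and Tpm2 (35.9 ± 1.01 CPM per kb) formed a middle rank without overlap. Cnn1 (3.87 ± 1.82), Myh11 (1.70 ± 0.437) and Tagln (1.29 ± 0.186 CPM per kb) were lowest, and each overlapped the next. In hypoxia the order began with Vim (1139 ± 33.1 CPM per kb), Actb (1084 ± 97.6), Acta2 (923 ± 75.4) and Actg1 (876 ± 45.1), of which each neighbour overlapped the next, and Myl9 (146 ± 21.1) stood below Tpm4 (182 ± 17.3). The Tagln level is a lower limit, as 1349 of its 1988 exon bases (67.9%) also belong to exons of opposite-strand genes, 1241 to the antisense gene Gm48529 and 108 to Pcsk7, and fragments there were not assigned when counting without strand. Over the 639 exon bases left, its control level was 4.004 ± 0.578 CPM per kb, so its place beside Cnn1 and Myh11 depends on the length used.

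**Figure D1:**
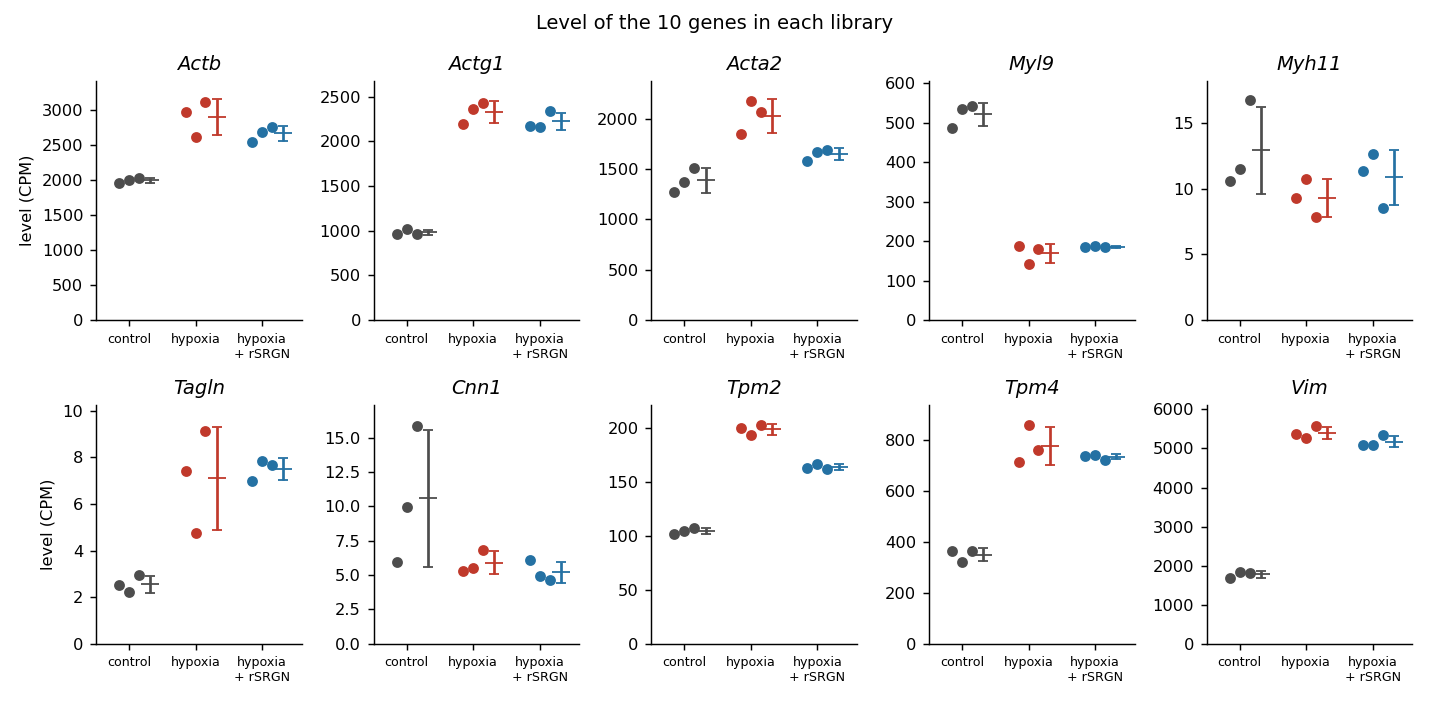
Level of each gene in CPM (vertical axis, linear from 0, its own scale per gene) in the 9 libraries, with points for libraries and a bar for the mean and SD of each group of 3. Vim, Actg1, Tpm2, Tpm4, Tagln, Actb and Acta2 stand higher in every hypoxic library than in any control library, and Myl9 stands lower. Cnn1 has its widest spread in control (5.93 to 15.8 CPM).

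The first comparison, hypoxia against control, asked how the genes differed after 6 h without oxygen, glucose and serum. A gene was called when the Benjamini-Hochberg adjusted p of edgeR's quasi-likelihood test was below 0.05 and the fold change was at least 1.5. By this rule 7 of the 10 genes were called, where 51.6% of all tested genes were. Actg1, Tagln, Vim, Tpm2 and Tpm4 rose (26.4% of all tested genes did) and Cnn1 and Myl9 fell (25.1% did). Actb, Acta2 and Myh11 passed the adjusted p alone and stayed under 1.5-fold. The groups did not overlap for 8 of the 10 genes, against 73% of all tested genes, of which 7 were higher in hypoxia (37.7% of all tested genes) and 1 lower (35.3%). The median log2 fold change was 0.74, against 0.05 over all tested genes.

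Actb, the beta form of cytoplasmic actin and a common reference gene in qPCR, lies on the minus strand at chr5:142903115-142906754 (GRCm38). Its level was 1961, 2002 and 2027 CPM in the control libraries and 2973, 2613 and 3122 CPM in the hypoxia libraries. Every hypoxia library was above every control library, and the control libraries differed among themselves by less than those of hypoxia. The log2 fold change was 0.54 ± 0.08 (SE, 1.45-fold, edgeR adjusted p = 2.13e-06), under the limit for a call. It passed that limit when library size alone set the scale (0.61) or without hypoxia replicate 2 (0.61).

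Actg1, the gamma form of cytoplasmic actin, lies on the minus strand at chr11:120345690-120348542. Its level was 968, 1014 and 960 CPM in control and 2197, 2359 and 2430 CPM in hypoxia, with a wide gap between the groups. It rose 2.38-fold, a log2 fold change of 1.25 ± 0.07 (SE, edgeR adjusted p = 1.06e-12). The 95% interval of 1.10 to 1.40 lay above that of Actb, 0.38 to 0.70. Within a library, the log2 ratio of Actg1 to Actb counts was -1.02, -0.98 and -1.08 in control and -0.44, -0.15 and -0.36 in hypoxia. The ratio was 0.71 higher in hypoxia on the log2 scale, with an exact two-sided permutation p of 0.1, the smallest that 3 against 3 libraries allow (0.141 after Benjamini-Hochberg adjustment over 24 tests of 8 ratios in 3 comparisons). Part of the Actg1 sequence is shared: 37.4% of the 50-base stretches of its transcripts also occur in transcripts of other genes, mostly the pseudogenes Gm12715, Gm8399 and Actg-ps1, against 9.12% for Actb and 0.33% for Acta2. Fragments from such stretches could have been lost or placed at a copy, so the Actg1 level is uncertain to that extent.

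Acta2, the alpha actin of smooth muscle, lies on the minus strand at chr19:34241090-34255590. Its level was 1272, 1372 and 1514 CPM in control and 1847, 2173 and 2062 CPM in hypoxia, again without overlap. The log2 fold change was 0.55 ± 0.08 (SE, 1.46-fold, edgeR adjusted p = 3.18e-06), close to that of Actb and also under the limit. It passed the limit with library size alone (0.62), without control replicate 3 (0.61) and without hypoxia replicate 1 (0.61). The log2 ratio of Acta2 to Actb within a library was -0.62, -0.55 and -0.42 in control and -0.69, -0.27 and -0.60 in hypoxia. These ratios overlapped, and their difference was 0.01 (exact permutation p = 0.9).

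Myl9, a regulatory light chain of smooth muscle and non-muscle myosin, lies on the plus strand at chr2:156775420-156781658. Its level was 488, 535 and 543 CPM in control and 187, 142 and 180 CPM in hypoxia, so the highest hypoxia library held well under the lowest control library. It fell 3.08-fold, a log2 fold change of -1.62 ± 0.09 (SE, edgeR adjusted p = 2.35e-13), the largest fall of the 10. Against Acta2 in the same library, the log2 ratio of Myl9 was 2.18 lower in hypoxia (exact permutation p = 0.1, adjusted 0.141).

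Myh11, the myosin heavy chain of differentiated smooth muscle, lies on the minus strand at chr16:14194535-14291372 and was detected at a low level. It stood at 10.6, 11.5 and 16.7 CPM in control and at 9.29, 10.7 and 7.82 CPM in hypoxia, and the groups overlapped. Its log2 fold change was -0.47 ± 0.18 (SE, edgeR adjusted p = 0.0203), under the limit of 1.5-fold. It passed the limit without control replicate 1 (-0.62) and without hypoxia replicate 2 (-0.59).

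Tagln (transgelin, SM22-alpha), an actin-binding protein of smooth muscle, lies on the minus strand at chr9:45929619-45936058. Its level was 2.52, 2.21 and 2.95 CPM in control and 7.41, 4.74 and 9.15 CPM in hypoxia. The hypoxia libraries spread over a wide range and all lay above control. Tagln rose 2.78-fold, a log2 fold change of 1.47 ± 0.22 (SE, edgeR adjusted p = 3.78e-06), on the fragments outside the overlap with Gm48529 and Pcsk7. The antisense gene Gm48529 itself had 18 to 47 fragments per control library and 46 to 70 per hypoxia library, and in counts without strand its reads and those of Tagln cannot be told apart where they overlap.

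Cnn1 (calponin 1), which binds actin and tropomyosin and restrains actomyosin in smooth muscle, lies on the plus strand at chr9:22099216-22109630. Its level was 5.93, 9.98 and 15.8 CPM in control and 5.32, 5.55 and 6.83 CPM in hypoxia. The control libraries differed among themselves by a coefficient of variation of 47.1%, and the lowest of them lay within the hypoxia range. Cnn1 fell 1.79-fold, a log2 fold change of -0.84 ± 0.24 (SE, edgeR adjusted p = 0.00383). The call rested on control replicate 3: without it the log2 fold change was -0.44 and the adjusted p 0.0818. In control that library was also the highest for Acta2 and Myh11, and it was the highest of its group for 7 of the 10 genes.

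Tropomyosins lie along the actin filament and gate its access to myosin. Tpm2, a tropomyosin of smooth and slow skeletal muscle, lies on the minus strand at chr4:43514711-43523765 and stood at 102, 105 and 108 CPM in control and 200, 193 and 203 CPM in hypoxia. Tpm4, of non-muscle cells, lies on the plus strand at chr8:72130174-72153142 and stood at 365, 320 and 362 CPM in control and 713, 857 and 758 CPM in hypoxia. Both genes were well apart between the groups. Tpm2 rose 1.90-fold (log2 0.92 ± 0.07 SE, edgeR adjusted p = 3.54e-11). Tpm4 rose 2.22-fold (log2 1.15 ± 0.08 SE, edgeR adjusted p = 1.47e-11). The log2 ratio of Tpm4 to Tpm2 within a library overlapped between the groups, with a difference of 0.23 (exact permutation p = 0.2). Of the 50-base stretches of Tpm4 transcripts, 15.7% were shared with another gene, mainly Gm7809, and for Tpm2 the share was 0.

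Vim (vimentin), the intermediate filament of fibroblasts and other mesenchymal cells, lies on the plus strand at chr2:13573927-13582826 and shared no 50-base stretch with another gene. Its level was 1678, 1841 and 1805 CPM in control and 5359, 5275 and 5579 CPM in hypoxia. It rose 3.05-fold, a log2 fold change of 1.61 ± 0.08 (SE, edgeR adjusted p = 1.97e-14), the largest rise of the 10, and 91.5% of all tested genes had a lower log2 fold change. Against Actb in the same library, the log2 ratio of Vim counts was 1.07 higher in hypoxia (exact permutation p = 0.1, adjusted 0.141).

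**Figure D2:**
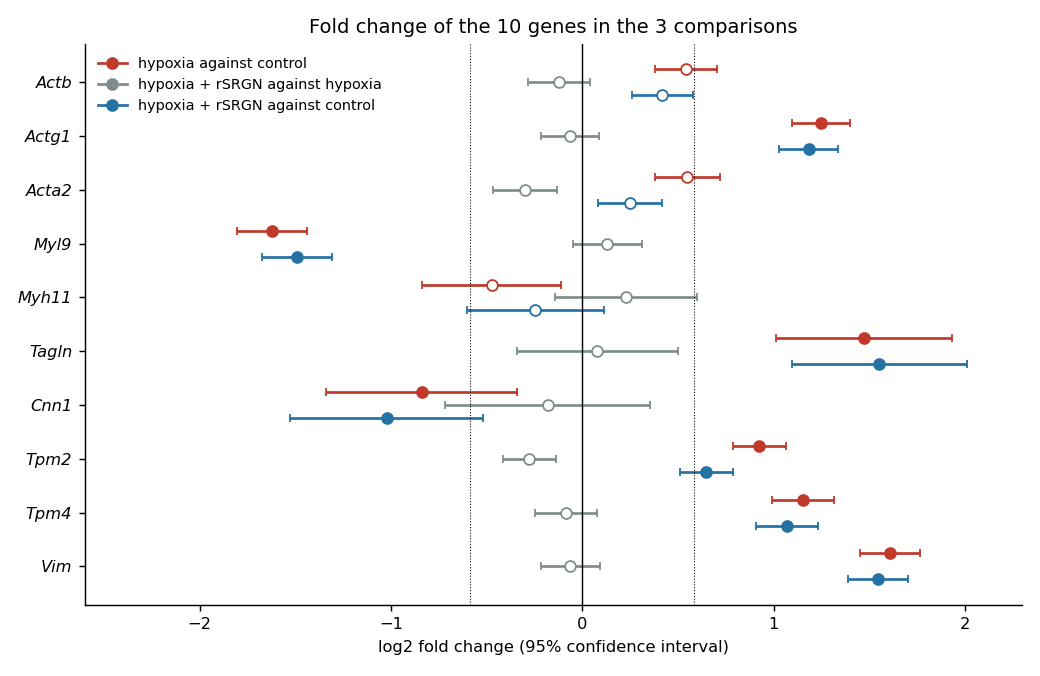
Log2 fold change (horizontal axis) of each gene with its 95% confidence interval in 3 comparisons, with filled points for called genes, open points for the others and dotted lines at 1.5-fold. In hypoxia against control the values run from -1.62 for Myl9 to 1.61 for Vim, while all 10 values of hypoxia + rSRGN against hypoxia lie between -0.30 and 0.23 with open points.

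The genes were then set among their close relatives, per kilobase and summed within each family, a view chosen after the values had been seen and given without a test. The 6 actin genes together had 6759 ± 464 CPM per kb in control (SD, n = 3) and 3350 ± 80.7 in hypoxia. In control 73.9 ± 0.812% of this sum was Actc1, the alpha actin of heart muscle, and in hypoxia 13.4 ± 3.73%. Over the same groups the share of Actb went from 11.1 ± 0.586% to 32.4 ± 3.48%, that of Acta2 from 9.33 ± 0.243% to 27.5 ± 1.63% and that of Actg1 from 5.47 ± 0.404% to 26.1 ± 1.07%. By the mean, the largest actin fraction was thus Actc1 in control and Actb in hypoxia, and the shares of these 4 genes did not overlap between the groups. Shares of 1 sum depend on each other and are not separate results. A lower Actc1 level (4998 CPM per kb in control and 451 in hypoxia) by itself raises the shares of the other actins. The smooth muscle gamma actin Actg2 and the skeletal muscle actin Acta1 each stayed under 0.5% in every library.

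The tropomyosins were examined in the same way. Their sum was 1267 ± 68.1 CPM per kb in control and 567 ± 32.8 in hypoxia. Tpm1, the main tropomyosin of heart muscle, made up 87.8 ± 0.779% in control and 43.5 ± 2.12% in hypoxia, while Tpm4 made up 6.46 ± 0.585% and 32.03 ± 1.74%, and Tpm2 2.84 ± 0.0729% and 12.1 ± 0.985%. Among the smooth and non-muscle regulatory light chains Myl9 made up 90.7 ± 0.607% in control and 55.4 ± 2.53% in hypoxia, as Myl12a, its non-muscle relative, went from 8.85 ± 0.598% to 41.7 ± 2.32%. Myl9 was thus the leading light chain of this family in both groups.

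By counted fragments the other smooth muscle members were minor forms of their families, but for Tagln these counts give a lower limit only. Myh11 made up 2.16 ± 0.361% of the summed Myh9, Myh10 and Myh11 in control and 1.38 ± 0.211% in hypoxia, and Myh9, a non-muscle heavy chain, 62.5 ± 1.10% and 75.0 ± 0.941%. Cnn1 made up 2.74 ± 1.22% of the calponins in control and 0.846 ± 0.102% in hypoxia, where Cnn2 held 64.4 ± 1.05% and 59.7 ± 1.59%. Tagln made up under 1% of the transgelins in every library over its whole exon length, with Tagln2 at 99.0 ± 0.0809% in control. Over the 639 exon bases where its fragments could be counted, the share of Tagln was 2.24% to 2.97% in control and 1.69% to 2.97% in hypoxia.

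**Figure D3:**
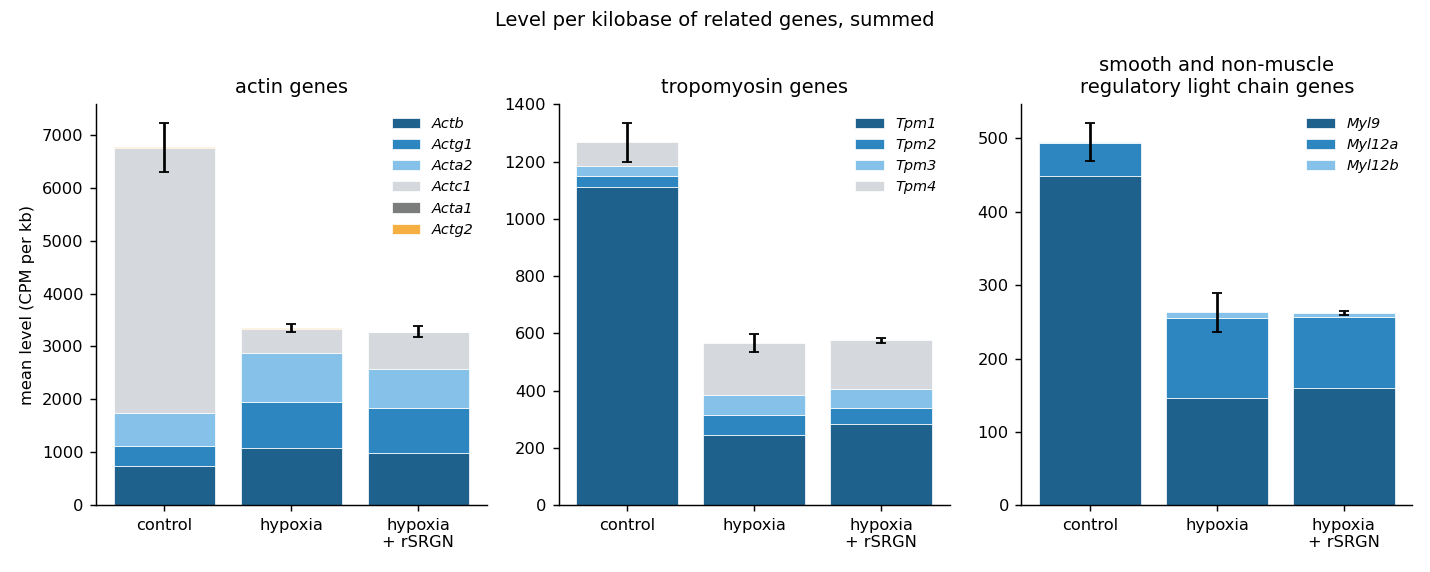
Mean level in CPM per kb (vertical axis, from 0) of related actin, tropomyosin and regulatory light chain genes in the 3 groups, stacked by gene, with bars for the SD of the sum over 3 libraries. The sum of the actins is 6759 CPM per kb in control, mostly Actc1, and 3350 in hypoxia, mostly Actb, Acta2 and Actg1.

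The second comparison, hypoxia + rSRGN against hypoxia, asked what the added serglycin did to these genes. None of the 10 was called by edgeR (0 of 10, where 3.13% of all tested genes were, 2.27% higher and 0.859% lower). DESeq2 called 0 as well (2.63% of all tested genes higher and 0.614% lower), and 2 had an unadjusted edgeR p under 0.05 (29.4% of all tested genes). Those were Acta2 and Tpm2, which also passed the adjusted p alone and were the only 2 of the 10 whose groups did not overlap, both lower with rSRGN (32% of all tested genes did not overlap, 16.5% higher and 15.5% lower). The median log2 fold change of the 10 was -0.07, against -0.03 over all tested genes.

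Acta2 stood at 1580, 1667 and 1692 CPM with rSRGN, below each hypoxia library (1847, 2173 and 2062 CPM) and above each control library. Its log2 fold change against hypoxia was -0.30 (95% interval -0.47 to -0.13, edgeR adjusted p = 0.0142), within the limit of 1.5-fold over the whole interval. Over the alternatives the adjusted p of Acta2 ran from 0.000807 to 0.0878. Tpm2 stood at 163, 167 and 162 CPM, also between the control and the hypoxia libraries. Its log2 fold change against hypoxia was -0.28 (95% interval -0.41 to -0.14, edgeR adjusted p = 0.00629), and over the alternatives its adjusted p ran from 0.00144 to 0.0386. Both genes were thus lower with rSRGN in these libraries by less than 1.5-fold, and Acta2 did not pass the adjusted p in every alternative.

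The other 8 genes overlapped between both hypoxic groups. Actb stood at 2551, 2696 and 2760 CPM with rSRGN (log2 -0.12, 95% interval -0.28 to 0.04), Actg1 at 2173, 2165 and 2335 CPM (-0.07, -0.22 to 0.08) and Vim at 5095, 5086 and 5349 CPM (-0.06, -0.21 to 0.09). Tpm4 stood at 736, 740 and 721 CPM (-0.08, -0.25 to 0.08) and Myl9 at 184, 189 and 184 CPM (0.13, -0.05 to 0.31). For these 5 genes the interval lay within 1.5-fold in either direction. The low genes were less precise: Cnn1 stood at 6.08, 4.91 and 4.65 CPM (-0.18, 95% interval -0.72 to 0.35) and Myh11 at 11.4, 12.7 and 8.56 CPM (0.23, -0.14 to 0.60), so that a change of 1.5-fold remained within their intervals. Tagln stood at 6.97, 7.85 and 7.66 CPM (0.08, -0.34 to 0.50), and its sign turned without hypoxia replicate 2 (-0.14). The adjusted p of these 8 genes ran from 0.317 to 0.843.

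The coefficient of variation was lower with rSRGN than in hypoxia for 8 of the 10 genes and higher for Cnn1 (14.6% and 13.9%) and Myh11 (19.4% and 15.8%). It was 1.33% with rSRGN and 9.51% in hypoxia for Tpm4, 1.44% and 14.4% for Myl9 and 6.19% and 31.3% for Tagln, and close for Vim (2.88% and 2.90%). Hypoxia replicate 2 was the lowest of its group for Actb, Tagln, Myl9, Vim and Tpm2 and the highest for Acta2, Myh11 and Tpm4. With 3 libraries a group these spreads were not compared by a test. The log2 ratio of Acta2 to Actb was -0.69, -0.69 and -0.71 with rSRGN, a difference of -0.18 from hypoxia (exact permutation p = 0.1, adjusted 0.141), and without hypoxia replicate 2, whose ratio stood apart at -0.27, the difference was -0.05.

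**Figure D4:**
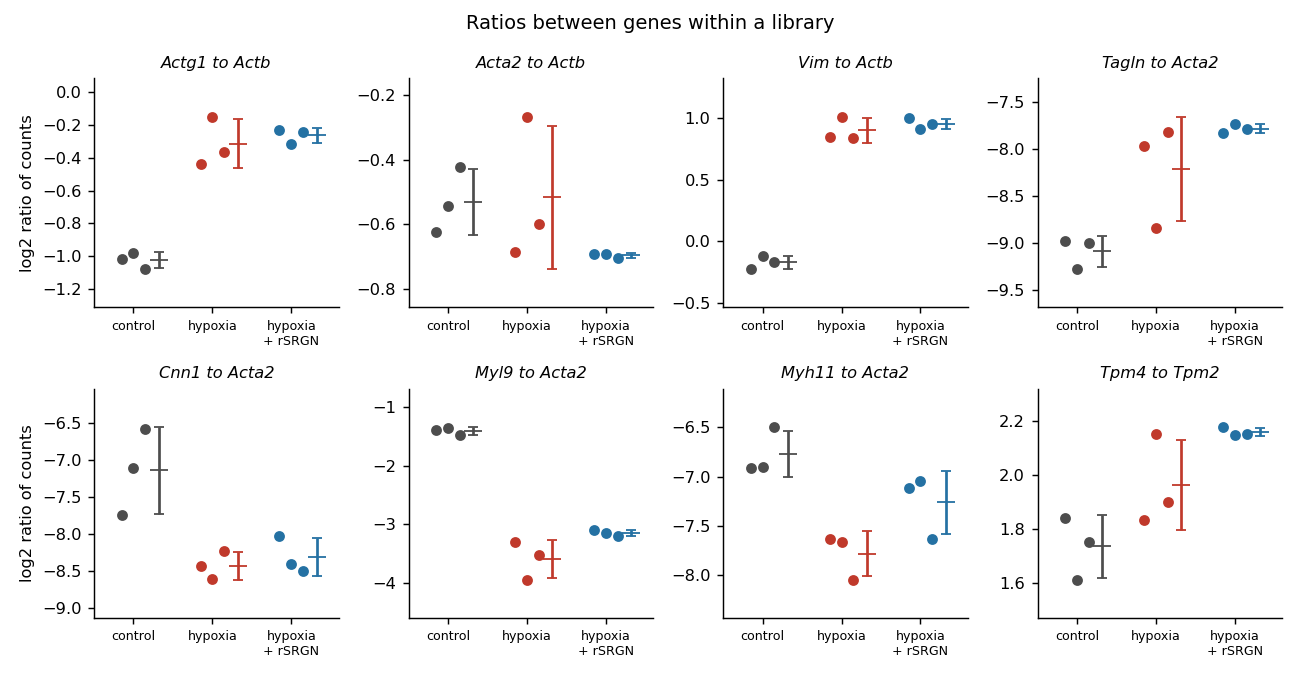
Log2 ratio of the counts of paired genes within a library (vertical axis, its own scale per ratio) in the 9 libraries, with points for libraries and a bar for the mean and SD of each group of 3. The ratio of Myl9 to Acta2 is 2.18 lower in hypoxia than in control, the ratio of Actg1 to Actb is 0.71 higher, and that of Acta2 to Actb overlaps between them.

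In the third comparison, hypoxia + rSRGN against control, 7 of the 10 genes were called, where 48.8% of all tested genes were (24.1% higher and 24.7% lower). The groups did not overlap for 8 of the 10, 7 higher and 1 lower, against 73.3% of all tested genes (36.6% in each direction). It shares its libraries with both comparisons above and is not independent of them. Actg1 (log2 1.18), Tagln (1.55), Vim (1.54), Tpm2 (0.65) and Tpm4 (1.07) rose, and Cnn1 (-1.02) and Myl9 (-1.49) fell. The Cnn1 groups overlapped, and its log2 fold change was -0.62 without control replicate 3 (edgeR adjusted p = 0.0181) and -1.32 without control replicate 1. Actb (0.42, edgeR adjusted p = 5.85e-05) and Acta2 (0.25, adjusted p = 0.00987) stayed under 1.5-fold, and Myh11 (-0.24, adjusted p = 0.212) did not pass the test. The difference of Acta2 from control was therefore 1.46-fold in hypoxia and 1.19-fold with rSRGN, and that of Tpm2 1.90-fold and 1.57-fold. With rSRGN the actin shares per kilobase were 30.4 ± 0.779% for Actb, 25.5 ± 0.363% for Actg1, 22.8 ± 0.584% for Acta2 and 20.9 ± 1.28% for Actc1.

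The genes that govern actin turnover were examined next. Of 20 actin monomer and filament regulators, 9 rose in hypoxia against control and 1 fell (26.4% and 25.1% of all tested genes) (median log2 fold change 0.36). Tmsb10, a thymosin that binds actin monomers, rose from 386 ± 0.622 to 1076 ± 80.8 CPM (SD, n = 3; log2 1.48), and Arpc1b, a subunit of the Arp2/3 complex that starts branched filaments, from 223 ± 12.1 to 572 ± 34.8 CPM (1.36). Cfl2, the cofilin of muscle, fell from 253 to 118 CPM (log2 -1.10). Of 20 non-muscle filament and adhesion genes 10 rose and 4 fell (median 0.56). The largest rises were those of Myl12b (1.77), a non-muscle light chain, and Tagln2 (1.58), the non-muscle transgelin, and the largest falls those of Tpm1 (-2.17) and Rdx (-0.72), a linker of actin to the membrane. Tpm1 stands in this list although it is also the main tropomyosin of heart muscle. Against hypoxia, rSRGN gave 0 calls in both lists by edgeR, which called 3.13% of all tested genes, and by DESeq2 (2.63% higher and 0.614% lower). An unadjusted edgeR p under 0.05 was reached by 8 and 11 of 20 genes, against 29.4% of all tested genes.

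Other smooth muscle genes went in both directions. Of 20 such genes 3 rose and 7 fell in hypoxia against control (26.4% and 25.1% of all tested genes), with a median log2 fold change of -0.29 against 0.05 over all tested genes. Tgfb1i1 (Hic-5), a focal adhesion protein, rose from 110 to 189 CPM (log2 0.78), and Actg2 rose from 14.7 to 22.8 CPM (0.64). The largest falls were those of Sh3bgr (-3.66) and Ppp1r12b (-2.91), a myosin phosphatase subunit of striated muscle. The others that fell were the desmin gene Des (-2.82), Nexn (-2.61), Fhl2 (-1.96), Csrp2 (-1.27) and Synpo2 (-1.17). Heart muscle also expresses genes of this list, Des among them, and its part in these falls was not tested. In hypoxia + rSRGN against hypoxia 2 of the 20 rose and 0 fell (2.27% and 0.859% of all tested genes), while DESeq2 had 3 higher and 0 lower (2.63% and 0.614%), and 10 had an unadjusted edgeR p under 0.05 (29.4%).

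The gene of SRF itself was not called. Srf stood at 93.5 CPM in control and 78.3 CPM in hypoxia (log2 -0.26, edgeR adjusted p = 0.00385). Of the 7 genes of this list 0 rose and 2 fell in hypoxia against control by edgeR (26.4% and 25.1% of all tested genes), DESeq2 gave the same counts (25.4% and 25.6%), and 6 had an unadjusted edgeR p under 0.05, as 73% of all tested genes had. Myocd (myocardin) fell from 125 to 10.3 CPM (log2 -3.60), and Mrtfb fell from 51.2 to 31.4 CPM (-0.71). Mrtfa (0.31), Elk1 (-0.13), Elk3 (0.47) and Elk4 (-0.40) were not called. With rSRGN, Myocd rose against hypoxia from 10.3 to 16.6 CPM (log2 0.67, edgeR adjusted p = 0.00134), still far under control, and Elk4 differed by 0.50 without a call.

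**Figure D5:**
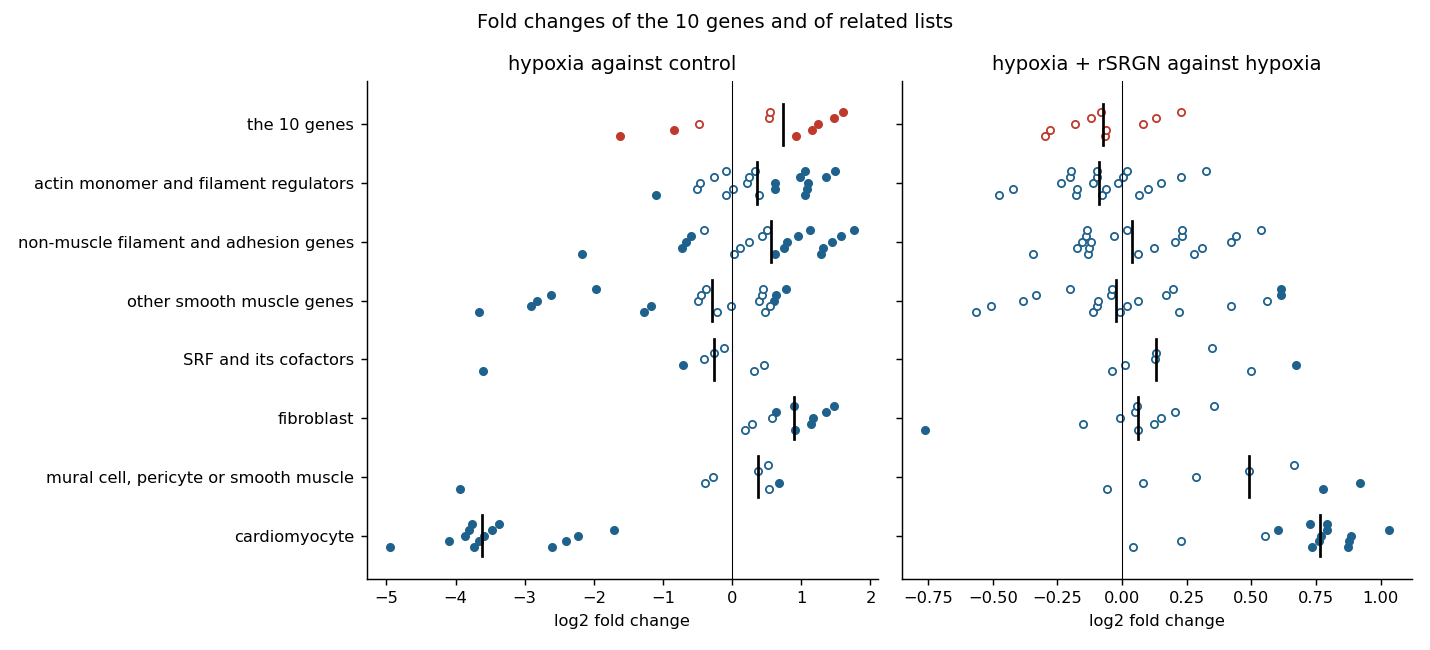
Log2 fold change (horizontal axis) of each gene of 8 lists in 2 comparisons, with filled points for called genes, open points for the others and a line at the median of the list. In hypoxia against control the 10 genes have a median of 0.74, fibroblast markers 0.90 and cardiomyocyte markers -3.62.

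Markers of cell types were set beside the 10 genes, and the lists went in different directions. In hypoxia against control all 14 cardiomyocyte markers fell and 7 of 10 fibroblast markers rose (0 fell), where 26.4% of all tested genes rose and 25.1% fell, the summed fibroblast level being 20866 to 23612 CPM in hypoxia and 22947 to 23772 CPM with rSRGN. No fibroblast marker was at 0 in every library of a group. Of 7 tested markers of mural cells, pericytes and smooth muscle 1 rose and 1 fell, and the sum of all 8 was 993 to 1126 CPM in control, 825 to 855 in hypoxia and 999 to 1034 with rSRGN. The lower sum in hypoxia came from Abcc9, which heart muscle also expresses (367 to 388 CPM in control and 17.1 to 29.5 in hypoxia). The other 7 summed to 626 to 738 CPM in control, 802 to 825 in hypoxia and 948 to 988 with rSRGN, so without Abcc9 every hypoxia library was above every control library. The single markers in that sum did not move together. Pdgfrb, a receptor of mural cells and fibroblasts, rose (log2 0.67), Abcc9 fell (-3.93), and Rgs5 stayed at 3.59 to 7.44 CPM in all control and hypoxia libraries. Without a call, Notch3 (0.54) and Mcam (0.38) were higher and Cspg4 (-0.28) was lower, each without overlap. Kcnj8 (0.52) overlapped between the groups and was not called. The 8 endothelial markers summed to 69.7 to 97.2 CPM in control and 43.6 to 53.02 in hypoxia (0 rose, 7 fell), and the 9 macrophage markers to 232 to 248 and 24.7 to 27.05 CPM (0 rose, 9 fell). In hypoxia + rSRGN against hypoxia 11 of the 14 cardiomyocyte markers rose, 1 of 10 fibroblast markers fell and 2 of 7 mural markers rose (2.27% of all tested genes rose and 0.859% fell). Of the 8 endothelial markers 1 rose, Kdr (log2 0.93, edgeR adjusted p = 0.00448), and 0 fell. None of the 9 macrophage markers was called (0 by edgeR and by DESeq2, with 2 at an unadjusted edgeR p under 0.05). With rSRGN these lists summed to 43.8 to 57.2 CPM and 29.1 to 34.7 CPM. The part of these cell types in the levels of the 10 genes was not tested.

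As a measure added after the values had been seen, each gene was divided by the summed fibroblast markers of the same library, a sum that was itself 1.02 higher in hypoxia on the log2 scale. By this ratio Vim was 0.59 higher in hypoxia than in control, without overlap. Actb was 0.48 and Acta2 0.47 lower, both without overlap, although each was higher on the CPM scale. The collagen genes Col1a1, Col1a2 and Col3a1 and the matrix gene Fbln2 made up 87.9% to 90.5% of the fibroblast sum, and with the other 6 markers alone the ratios of Actb (-0.49), Acta2 (-0.47) and Vim (0.58) hardly moved. Single markers differed, as Lum (log2 fold change 0.29) and Pdgfra (0.19) were higher in hypoxia by less than Actb (0.54) and Acta2 (0.55), so that against either of these both genes would be higher. Actg1 (0.23), Tagln (0.41), Tpm2 (-0.09) and Tpm4 (0.14) overlapped between the groups, although Actg1 (0.22) and Tpm4 (0.13) did not with the 6 markers. Myl9 (-2.65), Cnn1 (-1.75) and Myh11 (-1.47) were lower without overlap. Against hypoxia, the ratio with rSRGN was -0.36 for Acta2 and -0.34 for Tpm2.

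The genes whose levels ran most like those of Actb and Acta2 were sought among 9742 genes with a mean of at least 10 CPM, by the mean absolute difference of log2 CPM, centred on the control mean, over the 9 libraries. For Actb they were Phf5a (0.03), Impdh1 (0.04) and Nol12 (0.04), and for Acta2 Cd248 (0.03), Cdk10 (0.04) and Aurkaip1 (0.04). Cd248 (endosialin), a membrane protein of pericytes and fibroblasts, stood at 80.2 CPM in control, 116 in hypoxia and 96.0 with rSRGN. In the same order of groups, Cdk10 stood at 17.1, 25.3 and 20.6 CPM and Aurkaip1 at 37.0, 54.3 and 44.3 CPM. The likeness covers 3 groups of libraries and describes these cultures only.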

How the data were processed

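Whole-number fragment counts per gene were used as deposited. Per the file header they were made by the authors with featureCounts 2.0.1 on exons of GENCODE release M25 (GRCm38), for paired ends, without a strand option and without normalization. The submitters' processing notes name HISAT2 and mm10, and the library kit's strandedness is not given in the sources used here. All 9 columns were used and 0 were left unused, and every library was grouped by its label. Poly(A)-enriched RNA had been sequenced on a NovaSeq.

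Counts were fitted with edgeR 4.0.16 in R 4.3.3 (filterByExpr, TMM, glmQLFit and glmQLFTest, 1 mean per group over 9 libraries), with Benjamini-Hochberg adjustment over the 16762 tested genes. The SE is the log2 fold change over the root of F. No 2 libraries of a group agreed within sampling noise. Levels are CPM on TMM-scaled library sizes, and per kb of the deposited exon length, so composition affects both. The edgeR fit was tried on simulated counts with known changes, and the outcome is not given here. Ratios within a library were compared by exact two-sided permutation tests in SciPy 1.17.1, figures were drawn with matplotlib 3.10.9, and shared 50-base stretches were counted in GENCODE release M21 transcripts on both strands.

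The members, lists and rules were chosen with earlier results of these data known. Named were the 10 genes, the SRF list, from each other pathway list given here the 2 called genes that rose most and the 2 that fell most in hypoxia against control, and the 3 genes most like Actb and the 3 most like Acta2. Markers, the further falls in the list of other smooth muscle genes and the levels of the genes most like Acta2 were named after values were seen. Families, the ratio to fibroblast markers, the Tagln level over countable bases and the marker sums without named genes were added then. The alternatives were DESeq2 1.42.0, RLE scaling, library size alone, 2 other filters, no fold limit, only the groups compared, the replicate block, a scale without mitochondrial, rRNA and cardiomyocyte marker genes, and each library left out in turn. The result of 1 further list is not reported here.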

Additional observations from a re-analysis of the deposited data

How the results depend on the processing

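Of the log2 fold changes of the 10 genes under the alternatives, 162 of 170 kept direction and call in hypoxia against control, 1 lost its call (Cnn1, without control replicate 3) and 7 gained one (Actb, Acta2 and Myh11). In hypoxia + rSRGN against hypoxia 169 of 170 did, and in hypoxia + rSRGN against control all 170. The exception was Tagln, which ran from -0.14 to 0.30 with each library left out. With no fold change limit, 2790 genes and 2 of the 10 were called in hypoxia + rSRGN against hypoxia, where 525 and 0 were called with it, and with each library left out the count of genes ran from 321 (without hypoxia replicate 3) to 699. With each library left out, ratios near 0 changed sign: Acta2 to Actb in hypoxia against control ran from -0.11 to 0.10, and in hypoxia + rSRGN against hypoxia Actg1 to Actb ran from -0.0086 to 0.14 and Cnn1 to Acta2 from -0.027 to 0.22. The cause of these changes was not tested. Scaling moved the median of all genes by at most 0.07 on the log2 scale. Replicate numbers do not pair the libraries by the labels, deviations of same-numbered libraries correlated by -0.04 to 0.02, and with the replicate block 8550, 495 and 8096 genes and 7, 0 and 7 of the 10 were called, so the block changed no count by over 1.5 times. In alternatives added after the data were seen, the summed mural markers in hypoxia against control turned from -0.35 to 0.24 on the log2 scale without Abcc9, while the 10 ratios to fibroblast markers kept their sign without Col1a1, Col1a2, Col3a1 and Fbln2. Cnn1, Myh11 and Tagln, which stood under 20 CPM, had the highest coefficients of variation of the 10 in control and with rSRGN.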
